A study of Mus musculus with 4 samples.

Results

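The levels of 8 adhesion genes were followed through the stroma of the embryonic mouse intestine: *Alcam*, *Ncam1* and *Mcam* of the immunoglobulin superfamily, and the cadherin genes *Cdh2*, *Cdh3*, *Cdh6*, *Cdh11* and *Cdh13*. They are 8 of the 28692 genes listed in the files, and they were picked by name with earlier results of these data known, among them a higher level of *Alcam* in the small intestine. All embryos were untreated, of stage E12.5 and of the EYFP (C57BL/6) strain, in which cells carry yellow fluorescent protein (YFP). Small intestine (SI) and large intestine with cecum (LI) each gave 2 libraries of droplet single-cell RNA sequencing, from separate experiments that each pooled several embryos, so that a library is not a single animal. The cells had been sorted as live, YFP+ and Itgb1+ (β1 integrin) and as negative for CD45, Ter119, CD31 and EpCAM. Sorting on an integrin, itself an adhesion receptor, sets which cells could be seen.

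Cadherins are calcium-dependent adhesion proteins that mostly bind the same cadherin on a neighbouring cell, and the classical ones are tied to the actin cytoskeleton through catenins. Adhesion molecules of the immunoglobulin superfamily work without calcium, and NCAM, the product of *Ncam1*, can carry polysialic acid, which weakens its adhesion. In the early gut tube such genes separate layers that lie side by side: the mesothelium on the outer surface, the forming muscle, the migrating neural crest cells that build the enteric nervous system, and the mesenchyme between them.

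After filtering, 22094 cells were kept, and the median number of unique molecular identifiers (UMIs, each a captured transcript) per cell was 8382 to 8829 in 3 libraries and 4220.5 in LI replicate 1. Libraries shared 8 to 15 cell barcodes in a pair, at most 0.221% of the smaller library. Clustering without the 8 genes, other adhesion genes and *Hox* genes gave 11 clusters. Cluster 6 was named mesothelial-like, clusters 7 and 8 neural-like and cluster 1 smooth muscle-like from their markers, and they are called mesothelial (1314 cells), neural (1246) and smooth muscle (4722) here. Clusters 0, 2, 4 and 10 lacked such markers among their leading genes but held fibroblast markers, and they are called other mesenchyme (11124). Clusters 3, 5 and 9 (3688 cells) stayed unnamed. In all 4 libraries 13 of 14 mesothelial and 12 of 14 neural markers were highest in the group of their name. So were 11 of 15 smooth muscle markers. The same marker lists named the clusters, so that these counts are no separate support for the names. None of 9 fibroblast markers was highest in other mesenchyme in all 4 libraries, and no narrower name was given to it. The smooth muscle cells of LI replicate 1 stood apart. Their smooth muscle markers summed to 1809 CPM, the UMIs of the genes scaled to a common total of all UMIs in the group, against 5521 to 11408 in the other libraries, and *Myh11*, the myosin heavy chain of smooth muscle, was at 10.6 CPM against 154 to 692. Other mesenchyme of SI replicate 2 exceeded these cells in both, at 2026 and 60.7 CPM, so that the smooth muscle name is weakest in LI replicate 1.

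Each level below is the sum of a gene's UMIs over the cells of a group in a library, in CPM. Shares of cells are given after each cell was thinned to 3000 UMIs, since libraries and groups differed in depth. As a gauge of free RNA, the mesothelial gene *Upk3b* was then found in at most 0.647% of cells in each library of the other 3 groups. *Myh11* was found in 0.757% to 9.11% of other mesenchyme, highest in SI replicate 2, and in at most 0.382% of neural cells. The groups come from clustering the same cells, so that differences between groups are a description, with no test. In 7 of the 8 genes, the group with the highest level was the same in all 4 libraries; *Cdh11* was the exception.

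**Figure D1:**
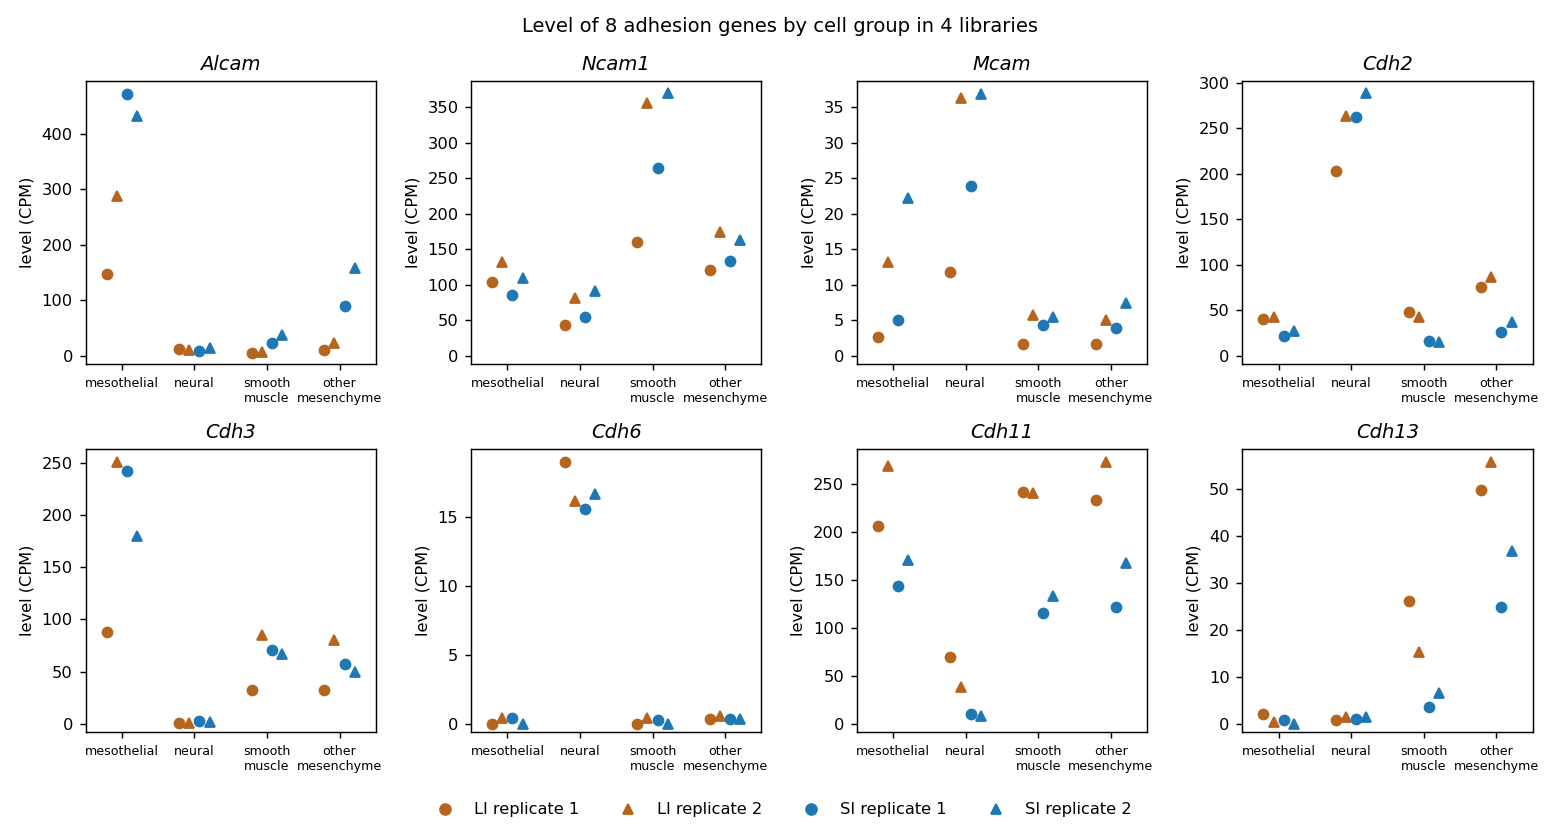
Level of each gene in CPM (vertical axis, linear, a scale of its own in each panel) in the 4 cell groups, with a point for each library (brown, LI; blue, SI; circle, replicate 1; triangle, replicate 2). *Alcam* and *Cdh3* were highest in mesothelial cells, *Mcam*, *Cdh2* and *Cdh6* in neural cells, *Ncam1* in smooth muscle and *Cdh13* in other mesenchyme in each library, and *Cdh11* was lowest in neural cells.

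*Alcam* (ENSMUSG00000022636, mm10 chromosome 16: 52248996 to 52454074, minus strand) encodes an adhesion molecule that binds itself and CD6. In mesothelial cells it was at 147 and 288 CPM in LI and at 472 and 433 CPM in SI, where values of a region are given in the order of its replicates. In other mesenchyme it was at 10.2 and 23.5 CPM in LI and at 89.3 and 159 CPM in SI, and in smooth muscle at 4.68 and 7.29 CPM in LI and 23.7 and 37.5 CPM in SI. All 3 groups thus held more *Alcam* in both SI libraries than in either LI library. In neural cells the values of LI were 11.8 and 11.5 CPM and those of SI 8.90 and 14.9 CPM, with the LI values inside the range of SI. The order mesothelial, other mesenchyme, smooth muscle held within every library, with means over the 4 libraries of 335 ± 148, 70.6 ± 68.5 and 18.3 ± 15.3 CPM (SD, n = 4), while smooth muscle was above neural in 2 libraries of 4. After thinning, *Alcam* was found in 54.6% ± 17.4 of mesothelial cells, 14.8% ± 13.1 of other mesenchyme, 4.81% ± 3.90 of smooth muscle and 3.24% ± 0.753 of neural cells (SD, n = 4).

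For 3 of the 8 genes (*Alcam*, *Mcam* and *Cdh6*) a window of 300 bases around the RefSeq start, 250 before and 50 after it, was at hand (build GRCm38.p6). Those of *Alcam*, which was found in every group, and of *Cdh6*, which was nearly limited to neural cells, are shown because the levels of these genes differ most in how many groups they cover. Both are printed 5′ to 3′ on the strand of the gene, and capitals mark E-boxes (CANNTG).
*Alcam*, chr16:52453032-52453331, minus strand: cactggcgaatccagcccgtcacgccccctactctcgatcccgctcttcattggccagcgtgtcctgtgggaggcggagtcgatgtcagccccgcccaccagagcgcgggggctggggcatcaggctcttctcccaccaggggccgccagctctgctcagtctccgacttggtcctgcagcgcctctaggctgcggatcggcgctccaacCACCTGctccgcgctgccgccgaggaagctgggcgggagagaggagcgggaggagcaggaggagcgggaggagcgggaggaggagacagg
*Cdh6*, chr15:13173626-13173925, minus strand: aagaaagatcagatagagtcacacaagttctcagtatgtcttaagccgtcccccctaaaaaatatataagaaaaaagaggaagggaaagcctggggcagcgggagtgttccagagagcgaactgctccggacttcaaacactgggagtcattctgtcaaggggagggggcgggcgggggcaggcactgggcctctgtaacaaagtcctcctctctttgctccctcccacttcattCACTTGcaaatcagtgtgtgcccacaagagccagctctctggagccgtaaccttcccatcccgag
The *Alcam* window was 69.7% G and C with 25 CpG pairs, that of *Mcam* 72.7% with 29 and that of *Cdh6* 53.0% with 8, where the median over 32851 promoters was 52.7% and 7. An E-box was present once in the windows of *Alcam* and *Cdh6* and in 72.3% of all promoters. The GC box GGGCGG, searched on both strands, matched at 2 places in each of these windows and was present in 35.7% of promoters. The CCAAT box (CCAAT, either strand) matched once in *Alcam* and not in *Cdh6*, with a share of 37.4% over all promoters, and the TEAD motif GGAATG matched in neither, with a share of 14.7%.

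Within other mesenchyme, *Alcam* was higher in both SI libraries in each of the clusters with more than 20 cells in every library. In cluster 0, led by *Igfbp5* and *Scx*, it was at 9.50 and 24.5 CPM in LI and 96.3 and 186 CPM in SI. In cluster 4, led by *Wnt4*, the values were 12.3 and 35.2 CPM in LI and 129 and 158 CPM in SI. In cluster 2, led by histone genes, they were 10.8 and 16.4 CPM against 58.7 and 117 CPM. The unnamed cluster 3, led by *Bmp3*, *Col14a1* and *Nrg1*, was different, with 2.38 and 1.66 CPM in LI and 2.05 and 3.35 CPM in SI (6, 8, 11 and 25 UMIs). In each of the 4 libraries, *Alcam* was thus lower in cluster 3 than in clusters 0, 2 and 4, and its regions overlapped there. Cluster 10, led by *Foxd1* and *Shisa3*, had 1 cell in each LI library. It held *Alcam* at 654 CPM in 20 cells of SI replicate 1 and at 176 CPM in 85 cells of SI replicate 2. Mesothelial cells of these SI libraries were at 472 and 433 CPM, below cluster 10 in SI replicate 1 and above it in SI replicate 2.

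*Ncam1* (ENSMUSG00000039542, chromosome 9: 49502136 to 49798925, minus strand) is best known as the neural cell adhesion molecule. In this tissue it was highest in smooth muscle, at 161 and 356 CPM in LI and 265 and 370 CPM in SI. Other mesenchyme held 121 and 174 CPM in LI and 134 and 163 CPM in SI, and neural cells 43.5 and 81.7 CPM in LI and 54.9 and 91.0 CPM in SI. The order smooth muscle, other mesenchyme, mesothelial, neural held in each of the 4 libraries, with a mean of 108 ± 19.3 CPM (SD, n = 4) in mesothelial cells. The low place of the neural group came with a split inside it. Cluster 7, led by the neural crest progenitor genes *Foxd3* and *Sox10*, had *Ncam1* at 26.1 to 62.4 CPM, and cluster 8, led by the neuronal genes *Cartpt*, *Stmn2* and *Tubb3*, at 130 to 177 CPM, without overlap between the clusters. *Ncam1* overlaps an exon of *Gm11149* on the opposite strand.

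*Mcam* (ENSMUSG00000032135, chromosome 9: 44134469 to 44142727, plus strand), an adhesion molecule known from endothelium, pericytes and melanoma, was highest in neural cells, at 11.8 and 36.2 CPM in LI and 23.9 and 36.9 CPM in SI. It split the neural clusters the other way. In cluster 7 it had 28 and 198 UMIs in LI and 109 and 195 UMIs in SI, and in cluster 8 it had 0 and 4 UMIs in LI and 1 and 6 in SI. The neuronal cluster 8 is small, with 291 cells against 955 in cluster 7. In mesothelial cells *Mcam* ran from 2.67 to 22.2 CPM, and in smooth muscle and other mesenchyme from 1.72 to 7.50 CPM. LI replicate 1, the shallowest library, had the lowest *Mcam* level of the 4 libraries in every cell group. *Mcam* overlaps an exon of *Gm10687* on the opposite strand.

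*Cdh2* (ENSMUSG00000024304, chromosome 18) encodes N-cadherin, the classical cadherin of neural tissue. In neural cells it was at 203 and 263 CPM in LI and 262 and 288 CPM in SI, above every value of the other groups, and was found in 53.0% ± 4.76 of cells after thinning (SD, n = 4). Both neural clusters held it, at 204 to 299 CPM in cluster 7 and 196 to 256 CPM in cluster 8. In other mesenchyme it was at 75.8 and 86.9 CPM in LI and 25.9 and 37.3 CPM in SI. In smooth muscle it was at 48.2 and 42.2 CPM in LI and 16.9 and 15.4 CPM in SI, and in mesothelial cells at 40.7 and 42.6 CPM in LI and 22.3 and 27.2 CPM in SI. Outside the neural group, both LI libraries therefore lay above both SI libraries, the reverse of *Alcam*.

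The regional pattern of *Cdh2* also depended on the cluster. Cluster 0 held 84.3 and 94.7 CPM in LI and at most 20.8 CPM in SI, and cluster 2 held 64.4 and 77.7 CPM against 22.4 and 26.7 CPM. Cluster 4 held 67.8 and 70.1 CPM in LI and 58.8 and 74.4 CPM in SI, where the regions overlapped. *Alcam* in that cluster did not overlap between regions. In cluster 3, where *Alcam* was lowest, *Cdh2* was at 39.3 and 53.0 CPM in LI and 27.0 and 29.2 CPM in SI. These differences within clusters were not tested.

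**Figure D2:**
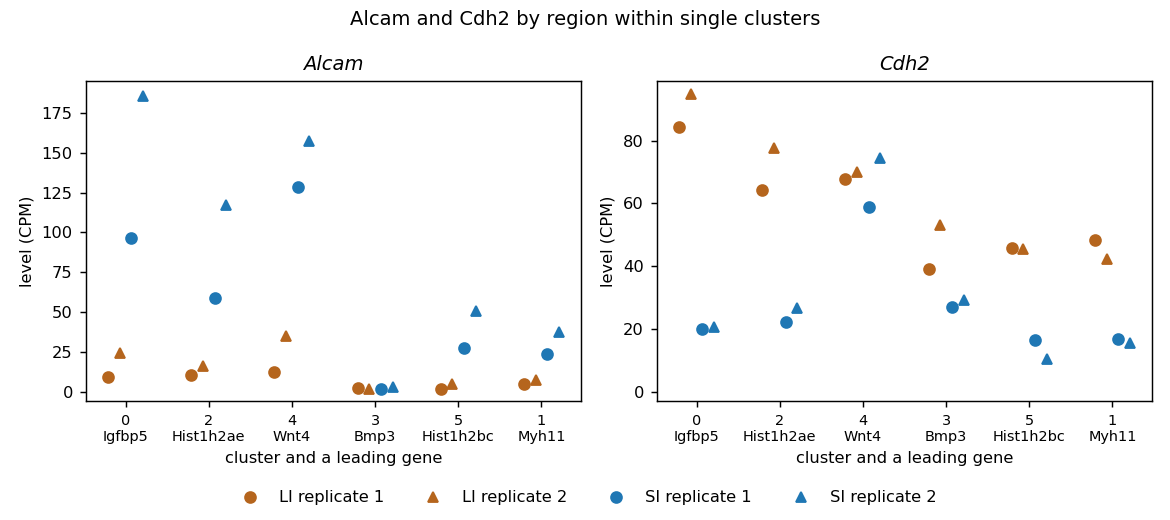
Level of *Alcam* (left) and *Cdh2* (right) in CPM (vertical axis, linear) in 6 single clusters named by number and a leading gene (horizontal axis), with a point for each library, coloured by region (brown, LI; blue, SI). *Alcam* was higher in SI in clusters 0, 2, 4, 5 and 1 and lay between 1.66 and 3.35 CPM in cluster 3, whereas *Cdh2* was higher in LI in every cluster shown other than cluster 4.

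*Cdh3* (ENSMUSG00000061048, chromosome 8: 106510891 to 106557297, plus strand) encodes P-cadherin, a classical cadherin best known from epithelia. In the mesothelium, an epithelium of mesodermal origin, it was at 88.1 and 251 CPM in LI and 242 and 180 CPM in SI. Smooth muscle held 32.7 to 85.3 CPM and other mesenchyme 32.1 to 80.6 CPM, and their ranges overlapped. In neural cells it had 2 and 5 UMIs in LI and 14 and 9 UMIs in SI, or 0.845 to 3.04 CPM. Mesothelial cells were thus above smooth muscle, and other mesenchyme above neural cells, with no overlap of their libraries. LI replicate 1 was the lowest of the 4 libraries for *Cdh3* in all 4 groups. *Cdh3* and *Alcam*, both highest in mesothelial cells, parted outside them: in clusters 3 and 10 *Cdh3* was at 19.7 to 27.7 CPM and at 14.2 and 7.94 CPM (SI libraries alone in the latter).

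*Cdh6* (ENSMUSG00000039385, chromosome 15: 13028701 to 13173675, minus strand) encodes a type II cadherin known from kidney and neural crest. In neural cells it was at 19.0 and 16.2 CPM in LI and 15.6 and 16.7 CPM in SI, from 45 to 91 UMIs in each. The regions overlapped there. Other mesenchyme had 6, 13, 8 and 9 UMIs, which is 0.363 to 0.551 CPM, and cluster 4 held part of them (0.861 to 2.25 CPM). In smooth muscle 0 UMIs were counted in LI replicate 1 and SI replicate 2, which allows levels of up to 0.738 and 0.197 CPM, and in mesothelial cells 0 UMIs in the same libraries allow 1.00 and 1.90 CPM. Inside the neural group, *Cdh6* was at 18.6 to 22.1 CPM in the progenitor cluster 7 and lower in the neuronal cluster 8, where 1 and 2 UMIs were counted in LI and 4 and 15 UMIs in SI.

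*Cdh11* (ENSMUSG00000031673, chromosome 8: 102632095 to 102785642, minus strand), the type II cadherin of mesenchyme and bone, was the most even of the 8 genes over the non-neural groups. Other mesenchyme held 233 and 273 CPM in LI and 122 and 167 CPM in SI. Smooth muscle held 242 and 241 CPM in LI and 116 and 134 CPM in SI, and mesothelial cells 207 and 269 CPM in LI and 144 and 170 CPM in SI. Each of these groups was higher in both LI libraries, and the 3 groups overlapped with each other. Neural cells held 69.3 and 38.8 CPM in LI and 10.4 and 7.89 CPM in SI, below every value of the other groups. *Cdh13* (ENSMUSG00000031841, chromosome 8: 118283733 to 119324921, plus strand) encodes T-cadherin, which is held in the membrane by a lipid anchor and has no part that could bind catenins. It was at 49.8 and 55.8 CPM in LI and 24.9 and 36.9 CPM in SI in other mesenchyme. In smooth muscle it was at 26.1 and 15.3 CPM in LI and 3.70 and 6.50 CPM in SI, and mesothelial and neural cells held at most 2.00 CPM. *Cdh13* was also among the leading genes by which cluster 0 is labelled, so that its level there is no separate result.

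**Figure D3:**
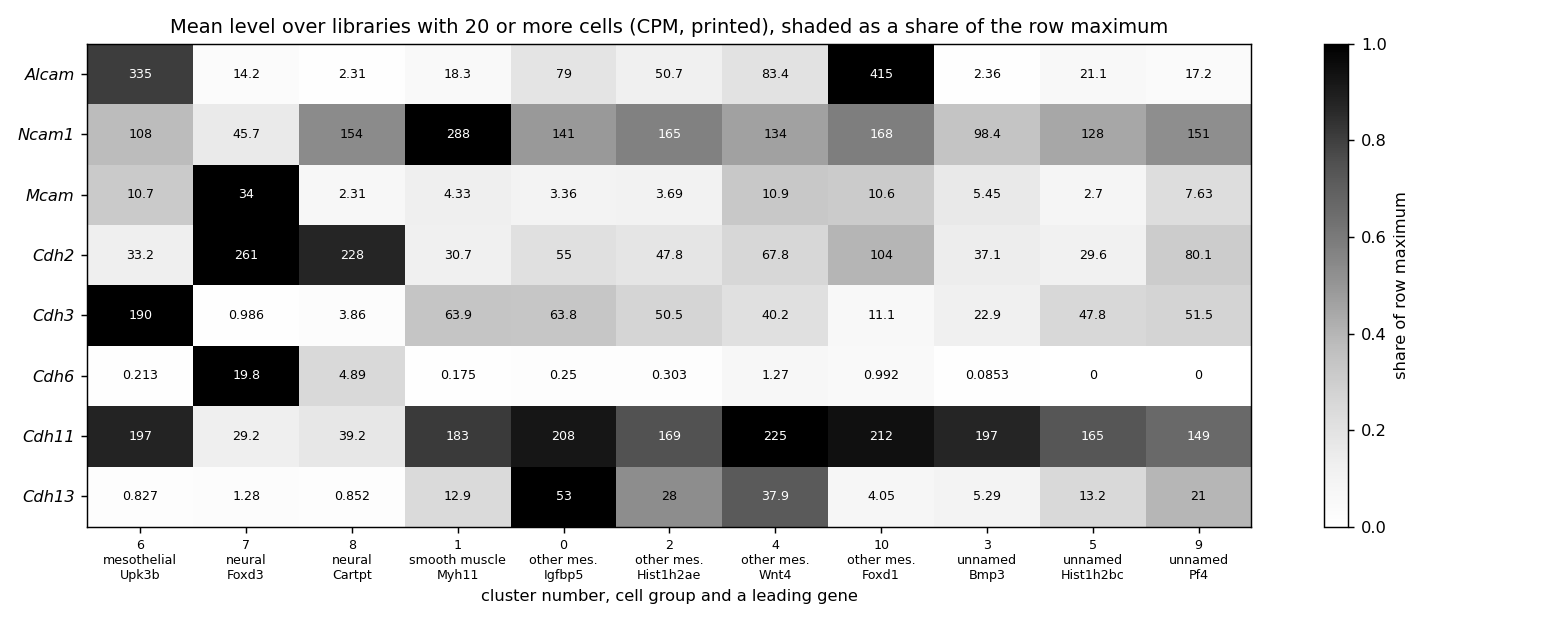
Mean level in CPM (printed in each cell) of the 8 genes (rows) in the 11 clusters (columns, with their cell group and a leading gene), over the libraries with at least 20 cells in the cluster, and its share of the highest value in the row (grey shade, from 0 to 1). *Mcam* and *Cdh6* stood out in the neural progenitor cluster 7, *Ncam1* in smooth muscle cluster 1 and *Cdh3* in mesothelial cluster 6. *Cdh13* was at 53.0, 28.0 and 37.9 CPM in clusters 0, 2 and 4. *Alcam* was at 415 CPM in cluster 10, a mean of 2 SI libraries alone, and at 335 CPM in cluster 6.

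To ask whether the genes differed between SI and LI, the 2 SI sums of each cell group were compared with the 2 LI sums in edgeR's quasi-likelihood test, with p-values adjusted over all genes tested (Benjamini-Hochberg) and calls at an adjusted p under 0.05. In other mesenchyme, *Alcam* was 8.12-fold higher in SI (log2 fold change 3.02 ± 0.40, SE). As a higher level of *Alcam* in SI was known when the genes were chosen, its regional differences are given with no test in any cell group. Without 1 library at a time the log2 fold change of *Alcam* ran from 2.55 (without LI replicate 1) to 3.70 (without LI replicate 2). *Cdh6* did not pass the filter on low counts. Of the other 6 genes, *Cdh2* was called, at 2.33-fold higher in LI (log2 fold change -1.22 ± 0.21, adjusted p = 0.0239), where 399 of 13779 genes or 2.90% were called. *Cdh11* (-0.66 ± 0.20, adjusted p = 0.147), *Cdh13* (-0.63 ± 0.21, adjusted p = 0.210) and *Mcam* (0.89 ± 0.47, adjusted p = 0.404) did not pass, nor did *Ncam1* (0.16 ± 0.21) and *Cdh3* (0.09 ± 0.35). A fit without 1 library leaves 1 library in a region, whose spread is assumed to be that of the other region, so that its p-values rest on a single pair of libraries. In such fits *Mcam* moved with the library left out, as its log2 fold change was 1.83 without LI replicate 2 (edgeR adjusted p = 0.00187), 1.26 without SI replicate 1 (adjusted p = 0.0275), 0.35 without LI replicate 1 and 0.41 without SI replicate 2. The libraries of the regions did not overlap for 4 of the 7 genes past the filter, which also held for 50.3% of all genes tested. The adjusted p of *Cdh2* in edgeR was 0.0533 without SI replicate 1 (log2 fold change -0.998), where *Mcam* was the 1 gene called (662 of 14254 of all genes tested). Of the genes other than *Alcam*, 2 were called without LI replicate 1 (711 of 14193 of all genes tested), 3 without LI replicate 2 (1638 of 14002) and 3 without the filter on low counts (1345 of 19226).

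In smooth muscle cells of the same 4 libraries, *Alcam* was 5.49-fold higher in SI (log2 fold change 2.46 ± 0.33, 2.08 to 2.86 without 1 library), and *Cdh2* was called, at 2.53-fold higher in LI (-1.34 ± 0.20, edgeR adjusted p = 0.0228). This is 1 of the 6 genes tested, and 1.31% of all genes tested were called. The regions did not overlap for 4 of the 7 genes past the filter, *Alcam* among them, as for 46.4% of all genes tested. The call of *Cdh2* held in the 9 alternatives tried, at adjusted p of at most 0.0427 in edgeR. *Cdh13* (-1.83 ± 0.37, adjusted p = 0.0728) and *Cdh11* (-0.81 ± 0.17, adjusted p = 0.0811) did not pass here, though *Cdh13* was called in 7 of 9 alternatives, among them DESeq2 and the fits without LI replicate 2, SI replicate 1 or SI replicate 2, and *Cdh11* in 4 of 9. The values of *Ncam1* (0.44 ± 0.35), *Mcam* (0.45 ± 0.48) and *Cdh3* (0.35 ± 0.37) lay less than 1.5 standard errors from 0. Without LI replicate 1, whose smooth muscle cells stood apart, *Alcam* was at 2.21, *Cdh2* at -1.25 and *Ncam1* at -0.02. With LI replicate 2 left out in its place, 5 of the 6 genes were called and *Ncam1* was at 1.13, in a fit that called 685 of 12690 genes against 160 of 12215 with all libraries. Without SI replicate 1 or without SI replicate 2, 2 of the genes were called (410 of 12377 and 271 of 12344 of all genes tested). DESeq2 called 3 (283 of 12930), and 3 were also called without the filter on low counts (854 of 17528). The mesothelial markers summed to 131 and 54.0 CPM in the LI smooth muscle cells and to 75.8 and 65.6 CPM in those of SI, and their part in the difference of *Alcam* was not tested.

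In mesothelial cells, 6 genes passed the filter, and none of the 5 other than *Alcam* was called by edgeR, where 0.977% of all genes tested were. At an unadjusted p under 0.05 there were 2 (1164 of 10649 of all genes tested), and DESeq2 called 0 (105 of 11894). The regions did not overlap for 3 of the 6, *Alcam* among them, as for 41.4% of all genes tested. *Alcam* was 2.20-fold higher in SI (log2 fold change 1.14 ± 0.26, 0.74 without LI replicate 1 and 1.64 without LI replicate 2). *Cdh2* was at -0.69 ± 0.25 (edgeR adjusted p = 0.318) and *Cdh11* at -0.53 ± 0.20 (adjusted p = 0.355). *Cdh3* (0.41 ± 0.36), *Mcam* (0.82 ± 0.69) and *Ncam1* (-0.21 ± 0.22) were less than 1.5 standard errors from 0. *Cdh3* was called without LI replicate 2 (edgeR adjusted p = 0.000609), where 929 of 10870 genes were. SI replicate 2 had the fewest mesothelial cells, 173 against 636 in LI replicate 1.

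In neural cells 6 genes passed the filter and *Cdh11* was called, 1 of the 5 tested, at 6.09-fold higher in LI (log2 fold change -2.61 ± 0.34, edgeR adjusted p = 0.0187), where 0.310% of all genes tested were called. *Alcam* (-0.02 ± 0.31), *Ncam1* (0.14 ± 0.30), *Mcam* (0.20 ± 0.39), *Cdh2* (0.17 ± 0.19) and *Cdh6* (-0.17 ± 0.25) were less than their standard error from 0. Its libraries alone among the 6 genes did not overlap between regions, as was the case for 38.9% of all genes tested. The call of *Cdh11* rests on 164 and 216 UMIs in LI and 48 and 43 UMIs in SI. Without SI replicate 2 its log2 fold change was -2.40 and neither it nor any of the other genes tested was called (287 had an unadjusted p under 0.05); without LI replicate 2, *Mcam* was called as well, among 1473 of 11525 genes. In LI, fibroblast markers in the neural cells summed to 392 and 340 CPM, against 255 and 227 CPM in SI, though 4 of the 9 markers were higher in both SI libraries and 2 in both LI libraries. Their part in the difference was not tested. *Cdh13*, which other mesenchyme of LI held at 49.8 and 55.8 CPM, was at 0.845 and 1.44 CPM in the LI neural cells. The difference of *Cdh11* was seen in cluster 7 (71.2 and 35.8 CPM in LI, 5.30 and 4.65 CPM in SI) and, with smaller ratios, in cluster 8 (59.1 and 51.8 CPM against 28.4 and 17.6 CPM).

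**Figure D4:**
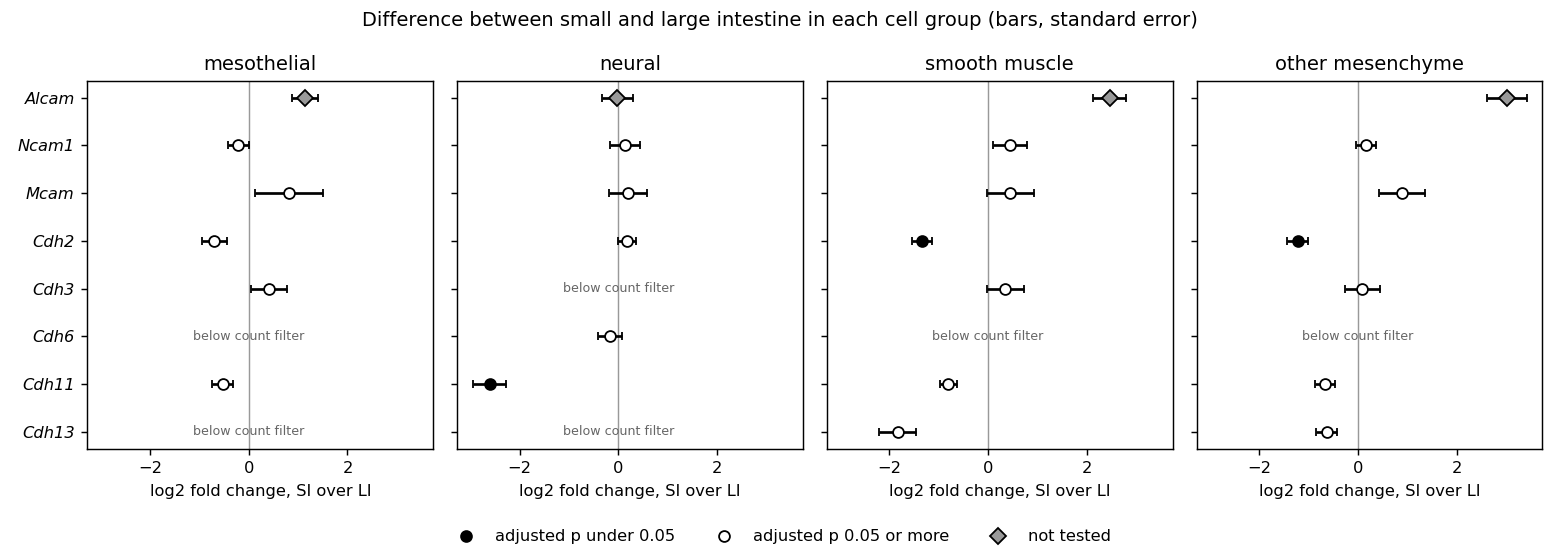
Log2 fold change of SI over LI (horizontal axis; bars, standard error; values below 0 are higher in LI) of each gene in the 4 cell groups, with 2 libraries in each region. Filled circles mark an adjusted p under 0.05, which applied to *Cdh11* in neural cells and to *Cdh2* in smooth muscle and other mesenchyme, open circles mark values that did not pass, and grey diamonds mark *Alcam*, which was not tested.

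Whether the regional difference itself changed with the cell group was tested with library as a block, against other mesenchyme. Neural cells differed for 2 of the 7 genes tested, where 10.6% of all genes did. Of the 7, *Cdh3*, *Cdh6* and *Cdh13* had passed the filter in 1 of these groups alone, and their difference between the groups could hardly be measured. For *Cdh2* the SI to LI difference was 1.42 ± 0.14 higher on the log2 scale than in other mesenchyme (edgeR adjusted p = 0.000126), which held in the 7 alternatives. For *Cdh11* it was 1.86 ± 0.36 lower in value (-1.86, edgeR adjusted p = 0.00665), with an adjusted p of 0.0948 in DESeq2. That is, the excess of *Cdh11* in LI was larger in neural cells. Without 1 library at a time this value ran from -2.46 to -1.36. Smooth muscle differed from other mesenchyme for none of the 6 genes tested (0.591% of all genes did) and mesothelial cells for none of 6 (3.62%). At an unadjusted p under 0.05 there were 2 and 3 of these (1239 of 13531 and 2105 of 13234 of all genes tested), and DESeq2 called none (67 of 10691 and 143 of 10289). *Cdh13*, among the 6 in mesothelial cells, had passed the filter in other mesenchyme but not in them. The nearest in smooth muscle was *Cdh13* (-1.15 ± 0.28, adjusted p = 0.147). Without the filter on low counts, *Cdh13* and *Ncam1* were called in smooth muscle, among 488 of 19577 genes. Without 1 library at a time the value in smooth muscle ran from -1.62 to -0.73 for *Cdh13* and from 0.04 to 0.70 for *Ncam1*. The differences of *Alcam* relative to other mesenchyme were -0.48 ± 0.19 in smooth muscle, -1.88 ± 0.22 in mesothelial and -2.90 ± 0.32 in neural cells, given without a test. Without 1 library they ran from -0.85 to -0.34, from -2.38 to -1.40 and from -3.81 to -2.53.

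The same comparisons were read for 67 further adhesion genes on 6 lists: other cadherins, catenins, delta protocadherins, other immunoglobulin adhesion molecules, nectins with afadin, and the enzymes that put polysialic acid on NCAM. In other mesenchyme 45 of them passed the filter, 5 were called higher in LI (1.96% of all genes tested were) and none in SI. Their median log2 fold change was -0.23, against 0.01 over all genes tested. The enzyme *St8sia2* was at 27.6 and 25.4 CPM in LI and 10.4 and 10.4 CPM in SI (adjusted p in edgeR 0.0186, -1.21 ± 0.19), while *Ncam1*, whose product it modifies, showed no difference beyond its error there. *Ctnna3*, an alpha-catenin, was at 20.2 and 15.3 CPM in LI and 4.45 and 5.72 CPM in SI (-1.65 ± 0.25, adjusted p = 0.0154). The other 3 were the immunoglobulin genes *Cadm2*, *Chl1* and *Cadm4*. *Cadm2* had 161 and 243 UMIs in LI against 3 and 10 in SI (adjusted p = 0.00141). *Chl1*, an adhesion molecule of the L1 family, had 218 and 310 UMIs in LI against 1 and 18 in SI (edgeR adjusted p = 0.00508), and *Cadm4* had 125 and 301 UMIs against 74 and 98 (log2 fold change -1.34 ± 0.28, adjusted p = 0.0470). The 5 calls held in all 13 alternatives.

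In smooth muscle 31 of the 67 genes passed the filter and 3 were called, all higher in LI (0.982% of all genes tested), with a median of -0.24 on the log2 scale against 0.01 over all genes. *Vcam1*, which binds α4 integrins, was at 37.4 and 44.7 CPM in LI and 3.61 and 5.13 CPM in SI (adjusted p in edgeR 0.00249, -3.08 ± 0.26 on the log2 scale). *Cadm2* had 37 and 32 UMIs in LI against 1 and 2 in SI (adjusted p = 0.00871), and *Chl1* 11 and 22 against 1 and 1 (adjusted p = 0.0122). None of 29 genes in mesothelial cells and none of 34 in neural cells was called in edgeR. At an unadjusted p under 0.05 there were 9 and 7 of these (1164 of 10649 and 936 of 11283 of all genes tested), and DESeq2 called 0 and 1 (105 of 11894 and 92 of 12046). In the test against other mesenchyme, the regional difference of 51 genes was read in neural cells, although only 34 had passed the filter there. Of the 51, 11 were called (10.6% of all genes tested), 10 with a higher and 1 with a lower value. DESeq2 called 6 (735 of 12201 of all genes tested). Genes that had passed the filter in 1 of these groups alone could hardly be measured in this test. How many of the calls are among them is not given. Of 47 genes read in mesothelial cells 3 were called (3.62% of all genes) and of 43 in smooth muscle 1 (0.591%). Only 29 and 31 of the genes had passed the filter within these cells, so that the same limit holds. DESeq2 called 1 in each (143 of 10289 and 67 of 10691 of all genes tested). On the list of catenins, which tie classical cadherins to actin, all 10 genes passed the filter in other mesenchyme, smooth muscle and mesothelial cells. None other than *Ctnna3* was called between regions there. In neural cells 9 of them passed the filter and none was called between regions. In the test against other mesenchyme, 3 of the 10 were among the 11 called in neural cells.

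Over the 16 sums of library and group, the genes whose levels were most like those of each of the 8 were looked up among 8691 genes with a mean of at least 10 CPM. The measure was Pearson's r of log2(CPM + 1), and these 16 values share their 4 libraries and depths. *Cdh6* was most like *Ret* (r = 0.995), *Gal* (0.995) and *Ass1* (0.994), and *Cdh3* most like *Fzd2* (0.988), *Clcf1* (0.983) and *Ddx50* (0.982). *Ret*, which encodes the receptor by which enteric neural crest cells sense GDNF, is on the list of neural markers. Genes nearly limited to the same cell group come out alike in this measure, so that a high r is no sign of a closer link. *Cdh2* was most like *Ssh2* (0.974), *Ick* (0.973) and *Cdc42ep1* (0.968), *Cdh11* most like *Zfp503* (0.972), *Fst* (0.948) and *Fkbp10* (0.946), and *Ncam1* most like *Tspan2* (0.964), *Ttc28* (0.955) and *Fat4* (0.948). *Alcam* had its nearest genes at r = 0.949 (*Gas6*), 0.924 (*Gmpr*) and 0.916 (*Nr3c1*), *Mcam* had among its nearest *Fam204a* (0.934) and *Rnf130* (0.927), and *Cdh13* had its nearest at 0.945 (*Brca2*), 0.927 (*Dnm3os*) and 0.920 (*Arhgef40*). Among the 8 genes, the highest r was between *Cdh2* and *Cdh6* (0.897) and the lowest between *Cdh3* and *Cdh6* (-0.922).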

How the data were processed

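Single-cell suspensions of sorted stromal cells were run on the 10x Genomics Chromium platform. Kits for either transcript end are named, their match to libraries is not given in the sources used here, and an effect of the kit could not be examined. Some labels call the tissue adult or colonic; stage and region follow the sample titles. The authors aligned reads to mm10 with Cell Ranger (3.1.0 per the labels), and the deposited values are raw UMI counts per gene and cell barcode, without normalization. Nothing states that the replicate numbers mark shared litters or days, and p-values measure the spread between libraries of pooled embryos.

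Cells with at least 1000 genes and under 10% mitochondrial UMIs were kept, and those with the highest Scrublet doublet scores were removed, at 0.8% for each 1000 cells (scanpy 1.11.5). Scrublet's own threshold marked 1 to 6 cells in a library, too few to be used. Libraries were integrated in Seurat 5.3.0 (R 4.3.3) on 2000 variable genes, less the adhesion and *Hox* genes (1941 left), with cell cycle scores regressed out and Louvain clustering at resolution 0.3 on 30 principal components. A cluster took the name of a class with at least 3 markers among its 10 leading genes by fold and none of another class. Without any, and with at least 3 fibroblast markers in 10% of cells, it joined other mesenchyme. This rule was set after the clusters were seen, and differences from the study can come from these rebuilt names. Thinned shares are expected shares over cells with at least 3000 UMIs. Replicate sums differed by more than sampling noise.

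Counts were summed over the cells of a group in a library and tested with edgeR 4.0.16 (TMM, default filter on low counts, quasi-likelihood test), with DESeq2 1.42.0 as an alternative. Standard errors are the size of the log2 fold change divided by √F. The tests were checked on simulated counts. Floors are 3 UMIs and cover counting error only. Positions are from GENCODE (mm10) and promoter windows from RefSeq. Among the 67 further adhesion genes, 5 symbols (4 nectins and afadin) were not in the files. The genes, lists and markers were chosen with earlier results of these data known, and the tests of *Alcam* between regions, planned for 3 cell groups, are therefore not given. Named beside the 8 genes are the 3 genes most like each (1 of those of *Mcam* is not reported here) and, from each list and comparison of SI with LI within a cell group, up to 3 called genes with the smallest adjusted p.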

Additional observations from a re-analysis of the deposited data

Results flagged for a closer look

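Of the 7 genes tested, 2 showed a regional difference that itself differed between neural cells and other mesenchyme (10.6% of all genes did), of which DESeq2 called 1. For *Cdh2*, the SI to LI difference on the log2 scale was 1.42 higher in neural cells than in other mesenchyme. For *Cdh11*, it was lower in neural cells than in other mesenchyme, with a value of -1.86 (adjusted p = 0.0948 in DESeq2). Groups of 2 libraries were too small to look for single libraries that stand apart in a gene.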

How the results depend on the processing

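With 2 libraries in a region, counts of called genes moved with the settings. Without the filter on low counts, 3 of the genes other than *Alcam* were called in other mesenchyme, 3 in smooth muscle and 2 in the interaction of smooth muscle. DESeq2 called 3 in smooth muscle and 1 in the interaction of neural cells, and clustering at resolution 0.5 gave 2 in smooth muscle (188 of all genes). With the replicate number as a block, 3 were called in other mesenchyme, 4 in smooth muscle, 0 in mesothelial and 1 in neural cells, and 1012, 1175, 664 and 408 of all genes against 399, 160, 104 and 35. The block added *Cdh11* and *Cdh13* in other mesenchyme and *Ncam1*, *Cdh11* and *Cdh13* in smooth muscle. Across 8228 to 8566 genes of a cell group, the difference between replicates 1 and 2 in SI correlated with that in LI at 0.277 to 0.459. This rests on 2 pairs of libraries, and no label says that a number marks a shared experiment. Over all genes without the filter, 1345, 854, 424 and 362 were called, and DESeq2 called 283 in smooth muscle and 92 in neural cells; in the interactions of smooth muscle, mesothelial and neural cells the counts were 488, 772 and 1967 without the filter and 67, 143 and 735 with DESeq2, against 80, 479 and 1421.

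Leaving out each library in turn gave counts of 1 to 3 in other mesenchyme, 1 to 5 in smooth muscle, 0 to 1 in mesothelial cells, 0 to 2 in neural cells and 0 to 2 in the interaction of smooth muscle, where all genes called ran from 604 to 1638, 138 to 685, 84 to 929, 0 to 1473 and 21 to 285. The 1 called without SI replicate 1 in other mesenchyme was *Mcam*, not *Cdh2*. Values that changed sign were not called in the main fits with all libraries. Some were called in an alternative, such as *Ncam1* in smooth muscle with the replicate number as a block. Without 1 library the log2 fold change in other mesenchyme ran from -0.079 to 0.40 for *Ncam1* and -0.43 to 0.84 for *Cdh3*. In smooth muscle the range was -0.022 to 1.13 for *Ncam1*, -0.072 to 1.66 for *Mcam* and -0.17 to 1.21 for *Cdh3*. In mesothelial cells it was -0.52 to 2.25 for *Mcam* and -0.16 to 1.29 for *Cdh3*, and in neural cells -0.42 to 0.26 for *Alcam*, -0.23 to 0.63 for *Ncam1* and -0.27 to 1.25 for *Mcam*. In the interactions it was -0.36 to 0.23 for *Cdh2* in smooth muscle and -0.96 to 0.44 for *Mcam* in mesothelial cells. In the interaction of neural cells it was -0.23 to 0.21 for *Ncam1* and -0.39 to 0.40 for *Cdh6*. For *Cdh13* in the interaction of mesothelial cells it was -6.53 to 1.23. These cells held 6 and 1 UMIs of *Cdh13* in LI and 2 and 0 in SI, so that this value could hardly be measured. *Cdh2* in the interaction of smooth muscle was at 0.087 with clustering at resolution 0.5, and *Ncam1* in that of neural cells at 0.0023 with DESeq2 and 0.0097 without the filter. The causes were not tested. The count of genes with the same highest group, 7, and the calls of *Cdh2* in smooth muscle and of *Cdh2* in the interaction of neural cells were kept in each alternative. Leaving out cluster 10, or adding clusters 3 and 5, both chosen after seeing the data, kept the count of 1 in other mesenchyme (488 and 458 of all genes).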
